A study of Mus musculus with 2 samples.

Results

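Slc7a10 (ENSMUSG00000030495) encodes Asc-1, the light chain of a transporter that exchanges small neutral amino acids such as alanine, serine, cysteine, glycine and D-serine across the plasma membrane. Light chains of the SLC7 family reach the membrane as partners of a heavy chain, which for Asc-1 is 4F2hc, encoded by Slc3a2. Asc-1 is best known from neurons, where it moves glycine and D-serine, the co-agonists of the NMDA receptor, and it is also known as a surface protein of white adipocytes. In subcutaneous fat, adipocytes arise from stromal cells that range from interstitial progenitors, which express Pi16 and Dpp4, to committed preadipocytes, which express Icam1, Dlk1 and the fatty acid binding protein Fabp4.

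Slc7a10 was followed as 1 of 31125 genes through droplet-based single-cell RNA sequencing of the stromal vascular fraction of inguinal subcutaneous white adipose tissue. The adolescent library came from wild type male C57BL/6J mice of post natal week 2, 7 of them pooled, and the adult library from 5 pooled males of the same strain and genotype at week 8. Live cells were sorted after collagenase digestion and centrifugation, a preparation that leaves floating adipocytes out. With 1 library per age there was no replicate, so age and library cannot be told apart, no test was made, and ranges in brackets are 95% intervals that cover counting error only. Levels are UMIs (molecules counted once by their identifier) of a gene summed over cells, per 1000000 UMIs of those cells (CPM).

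Stromal cells were defined as those with at least 1% of their UMIs from Col1a1, Col1a2, Col3a1 and Dcn, matrix genes of fibroblasts and their kin. This gave 1647 of 3915 adolescent cells (42.1%) and 1418 of 5429 adult cells (26.1%), with median depths of 10244 and 8387 UMIs. Few cells lay near this minimum. The 4 genes took a median 9.49% of the UMIs of adolescent stromal cells and 0.271% of those of the other adolescent cells, and from 3 to 6 cells per library lay between 0.8% and 1% or between 1% and 1.2%. Slc7a10 UMIs were found in 267 of the 1647 adolescent stromal cells and in 5 of the 1418 adult ones. The libraries had 22 cell barcodes in common, and none of them belonged to a cell with a Slc7a10 UMI.

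The gene lies on the plus strand of chromosome 7 (GRCm38, chr7:35186385-35201114), and its principal transcript in the GENCODE vM21 annotation has 11 exons. The last 1088 bases of the gene overlap Lrp3, a low-density lipoprotein receptor-related gene read from the other strand, and Cebpa, the adipogenic transcription factor C/EBP-alpha, starts 67.1 kb upstream. The sequence around the start site, from RefSeq on GRCm38.p6 (chr7:35186135-35186434, plus strand, 250 bases before to 50 bases from the start), is shown to place the gene, since the counts are taken at transcripts and measure no promoter.
Slc7a10 promoter: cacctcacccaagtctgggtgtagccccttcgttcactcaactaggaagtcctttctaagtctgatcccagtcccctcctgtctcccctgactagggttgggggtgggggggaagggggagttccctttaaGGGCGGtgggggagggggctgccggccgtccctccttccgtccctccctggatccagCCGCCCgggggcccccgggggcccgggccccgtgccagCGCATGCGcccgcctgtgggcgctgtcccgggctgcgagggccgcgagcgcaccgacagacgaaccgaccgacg
The capitals mark matches of the motifs searched on both strands. The GC box letters GGGCGG matched 2 times, beginning 119 and 62 bases before the start, and 35.7% of 32851 promoters of this length held them. The letters CGCATGCG, the core of the NRF1 motif, matched 1 time at 24 bases before the start and were in 1.87% of those promoters; they were searched after the sequence had been seen. The TATA box letters TATAAA, the nuclear receptor motif AGGTCA, the C/EBP motif TTGCNNAA, the E box CACGTG and the CCAAT box had no match in this window. The window was 70.7% G or C, above 91.4% of the promoters.

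In adolescent stromal cells Slc7a10 had 330 UMIs, a level of 19.9 CPM (17.8 to 22.2). Adult stromal cells held 5 UMIs, 0.432 CPM (0.140 to 1.01). The adolescent level was 46.2 times the adult one (19.6 to 143). In adolescent cells outside the stroma, 11 UMIs lay in 11 cells, and without the 3 cells that also held UMIs of Adipoq, Plin1 and Cidec the level was 0.876 CPM (0.420 to 1.61). That was 4.39% (2.09% to 8.18%) of the stromal level. For comparison, Pi16 stood in the same cells at 6.08% of its stromal level, and the neighbours Lrp3 and Cebpa at 1.88% and 141%. The collagens and Dcn stood at 2.22% to 3.43%, but these genes define the stromal cells, so low values outside are set by the rule. The source of the few Slc7a10 UMIs outside the stroma was not tested.

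The order of the classes was led by the stromal clusters, which were formed from all genes, Slc7a10 included, and whose levels are therefore a description. The adolescent cluster led by Col1a1, Akr1c18 and Cthrc1 held 24.4 CPM (21.3 to 27.7) over 913 cells. The adolescent cluster led by Dlk1, H19 and Ptn held 14.3 CPM (11.6 to 17.5) over 672 cells. Another 6 adolescent cells, in the cluster led by Cxcl14, Gsn and Col4a1, held 1 UMI. Next came macrophage-like cells with 1.71 CPM (0.352 to 4.99), dendritic-cell-like cells with 1.56 (0.0394 to 8.68), monocyte-like cells with 1.51 (0.0382 to 8.40), B-cell-like cells with 1.33 (0.275 to 3.90) and the unnamed cluster led by Ccl5, Gzma and Nkg7 with 0.847 (0.103 to 3.06). These 5 classes rest on 1 to 3 UMIs each and their intervals overlap. No UMI was found in adolescent T-cell-like cells, which allows up to 1.93 CPM, or in the cluster led by Lyz1, Cd209a and Tnip3, which allows up to 2.35 CPM. Mast-cell-like cells were also at 0, with a limit of 8.82 CPM, and the endothelial-like, neutrophil-like and erythrocyte-like cells and those led by Retnla, Ccl8 and Ccl24 were at 0 with limits of 9.90 to 53.7 CPM, too high to set them apart from the stroma except for the lowest.

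In the adult library Slc7a10 could not be set apart from the level outside the stroma. Without the 4 cells with UMIs of Adipoq, Plin1 and Cidec, adult cells outside the stroma held 3 UMIs, or 0.167 CPM (0.0345 to 0.489), which was 38.8% of the stromal level (6.02% to 199%). The adult stromal cluster led by Cxcl14, Gsn and Col4a1 held 3 UMIs, or 0.377 CPM (0.0777 to 1.10). B-cell-like cells, which should lack the gene, held 0.713 CPM (0.0863 to 2.57), the highest of the adult clusters outside the stroma. The adult clusters led by Ccl5, Gzma and Nkg7 and by Lyz1, Cd209a and Tnip3 were at 0, which allows up to 0.829 and 0.867 CPM. When every cell was thinned to 2000 UMIs, the mean share of cells with a Slc7a10 UMI was 3.66% among adolescent stromal cells and 0.0743% among adult ones, beside 0.279% and 0.195% among B-cell-like cells of each library. In 1 such thinning the counts were 63 of 1630 (2.98% to 4.92%) and 2 of 1375 (0.0176% to 0.524%) stromal cells, after 17 and 43 shallower cells had been left out. For B-cell-like cells they were 0 of 647, which allows a share of up to 0.464%, and 2 of 884, with 25 and 161 cells left out. Before thinning the shares were 16.2% (14.5% to 18.1%) and 0.353% (0.115% to 0.821%) in the stroma and 0.446% and 0.191% in B-cell-like cells, whose median depths of 2960 and 2512 UMIs were lower than those of the stroma.

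The 5 adult stromal cells with a Slc7a10 UMI had 1 UMI each. Their Pi16 counts were 2, 21, 43, 19 and 1 UMIs and their Fabp4 counts 1, 15, 50, 40 and 219, so cells with many Pi16 and cells with many Fabp4 UMIs were both among them. Of the 4 adult UMIs outside the stroma, 2 lay in cells with Cd79a, a B cell receptor component, at 9 and 12 UMIs. The other two lay in cells with 48 and 219 Fabp4 UMIs and 3 and 27 UMIs of Adipoq, the adipocyte hormone adiponectin. Over the cells outside the stroma with Adipoq, Plin1 and Cidec UMIs, 4 adult and 3 adolescent ones, Slc7a10 had 1 UMI in each library, equal to 88.4 CPM (2.24 to 493) and 23.6 CPM (0.598 to 132). These cells were picked by genes chosen after the values had been seen, and 1 UMI sets no level.

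**Figure D1:**
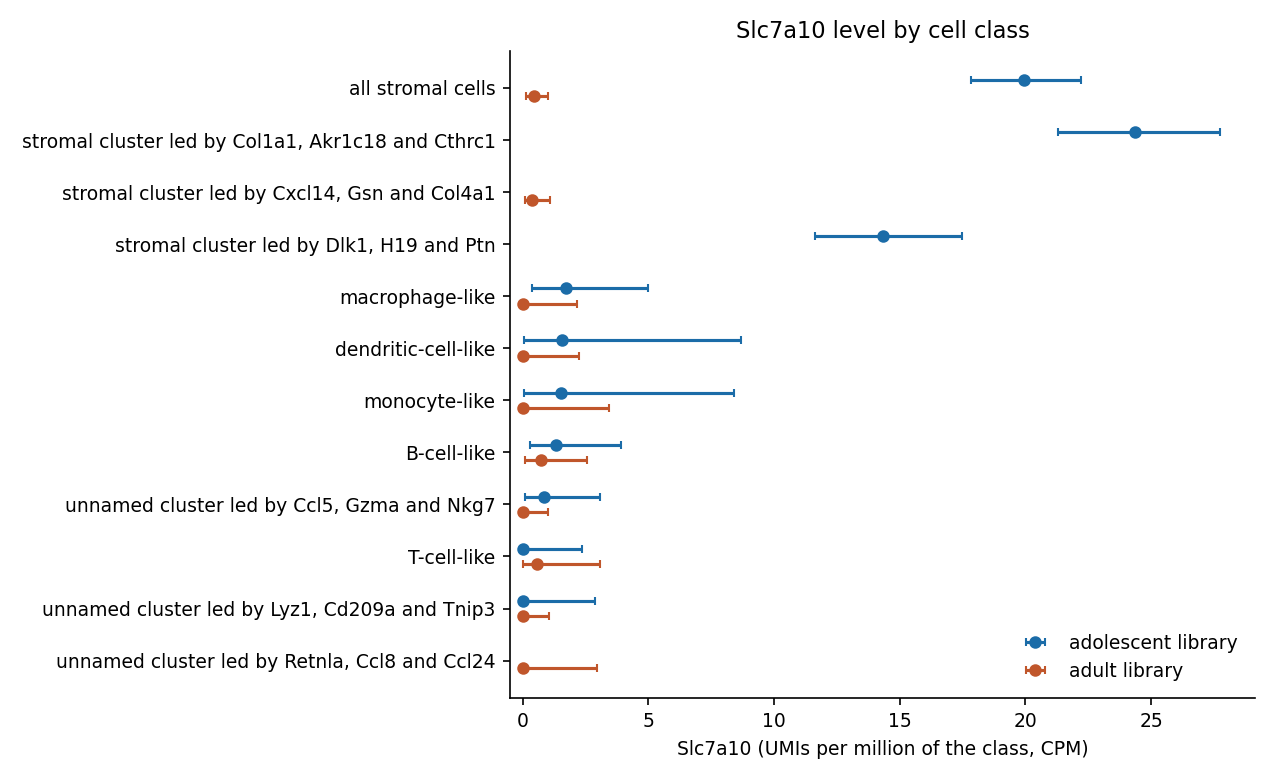
Slc7a10 level on the x axis (UMIs per 1000000 UMIs of the class) for each cell class on the y axis, with adolescent and adult libraries in separate colours and bars for exact Poisson 95% intervals. Classes in which 3 UMIs would amount to 5 CPM or more are left out, as is 1 stromal cluster. Adolescent stromal cells sit at 19.9 CPM and their clusters shown at 24.4 and 14.3 CPM, and every other class shown, adult stroma at 0.432 CPM included, lies at 1.71 CPM or below.

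Within the adolescent stroma the gene was sparse. Of the 267 positive cells, 214 held 1 UMI, 44 held 2, 8 held 3 and 1 held 4. Detection followed depth while the level hardly did. Over 4 groups of 411 or 412 stromal cells with rising total UMIs, the share with a Slc7a10 UMI went from 6.57% to 12.9%, 20.9% and 24.5%, whereas the level was 17.0 CPM (11.6 to 24.2), 17.3 (13.3 to 22.2), 21.3 (17.4 to 25.9) and 21.2 (17.8 to 25.1). A cell without a UMI was therefore not shown to lack the transcript, and positive cells were compared with negative cells of the same depth.

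Along Pi16, a secreted-protease-inhibitor-like gene that marks interstitial progenitors, Slc7a10 was higher the more Pi16 the cells held. The 206 stromal cells with no Pi16 UMI held 9.90 CPM of Slc7a10 (5.54 to 16.3). The others were split by Pi16 per 10000 UMIs into groups of 481, 480 and 480 cells, which held 12.5 (9.57 to 16.1), 21.2 (17.4 to 25.6) and 28.8 CPM (24.3 to 33.9). The intervals of the cells without Pi16 and of the next group overlap, whereas those of the cells without Pi16 and of the highest group do not. The highest group stood at 2.91 times the cells without Pi16 (1.71 to 5.33). When cells were ranked instead by the summed UMIs of 20 interstitial progenitor genes and split into 4 groups of like size, these held 10.2 (7.23 to 14.0), 17.4 (13.6 to 22.0), 22.0 (17.8 to 26.8) and 28.3 CPM (23.6 to 33.7). Depth moved with these groups, with median totals of 7700 to 11262 UMIs from the lowest to the highest Pi16 group. The level over the depth groups above was 17.0 to 21.3 CPM. The part of depth in the Pi16 result was not tested.

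Along Fabp4 the order was the opposite, and the step came at the top. The 1030 stromal cells without a Fabp4 UMI held 22.8 CPM of Slc7a10 (19.97 to 26.0). Groups of 206, 206 and 205 cells with rising Fabp4 held 22.2 (16.9 to 28.5), 17.3 (11.9 to 24.3) and 5.39 CPM (2.69 to 9.64). Only the highest group, at 6.81 Fabp4 UMIs per 10000 or more, lay outside the intervals of each of the other three. It stood at 0.236 times the cells without Fabp4 (0.116 to 0.430). Ranked by 20 committed preadipocyte genes in the same way, the groups held 22.9 (18.7 to 27.8), 26.9 (22.2 to 32.2), 15.6 (11.9 to 20.1) and 13.0 CPM (9.70 to 17.1), and the highest group was 0.569 times the lowest (0.398 to 0.803), a smaller step than for Fabp4 alone. The group with the least Fabp4 above 0 was also the deepest, at a median 12748 UMIs, since 1 UMI is a smaller part of a deeper cell.

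The rankings by Pi16 and by Fabp4 overlapped. Of the 205 cells highest in Fabp4, 204 were in the lower 2 Pi16 groups. Among cells without Fabp4, the upper 2 Pi16 groups held 26.4 CPM of Slc7a10 and the lower 2 held 11.3 CPM, a ratio of 2.34 (1.55 to 3.67). Among cells with Fabp4 the values were 21.0 and 12.2 CPM, a ratio of 1.72 (1.15 to 2.57). Within the lower 2 Pi16 groups, cells highest in Fabp4 held 5.402 CPM and those without it 11.3 CPM, a ratio of 0.480 (0.214 to 1.00). Without the highest Fabp4 group, a split chosen after the values had been seen, the cells with Fabp4 held 21.0 CPM (54 UMIs) in the upper and 19.05 CPM (39 UMIs) in the lower Pi16 groups, a ratio of 1.10 (0.718 to 1.71). The higher level with Pi16 was therefore seen in cells without Fabp4 and was not detectable among cells with low or middle Fabp4, and the interval of the Fabp4 ratio at low Pi16 reached 1. The lowest values among combinations with over 50 cells were 3.27 CPM (0.396 to 11.8), in 71 cells with no Pi16 and the highest Fabp4, and 3.81 CPM (0.462 to 13.8), in 88 cells with neither Pi16 nor Fabp4. The highest of these was 30.0 CPM (24.8 to 36.1), in 378 cells with the highest Pi16 and no Fabp4. A level of 58.6 CPM (21.5 to 128) came from 6 UMIs in 9 cells with no Pi16 and low Fabp4.

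**Figure D2:**
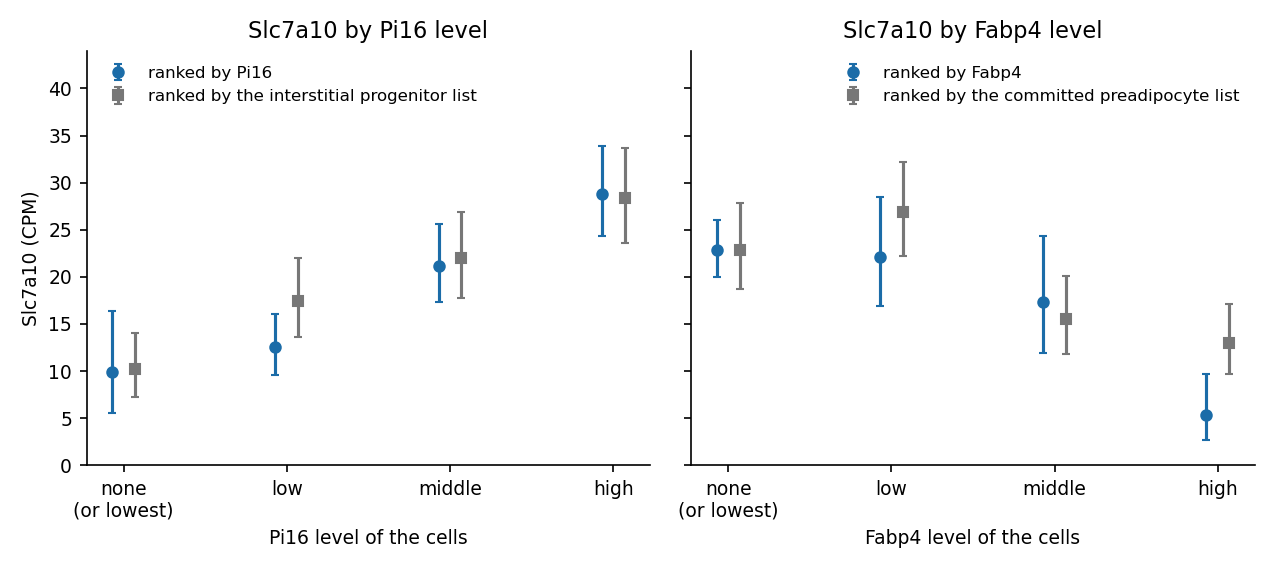
Slc7a10 level (CPM, y axis, exact Poisson 95% intervals) in groups of adolescent stromal cells ordered by Pi16 (left) or Fabp4 (right); circles rank cells by the single gene, with the cells lacking it first, and squares give 4 groups ranked by a 20-gene list. Slc7a10 goes from 9.90 to 28.8 CPM along Pi16 and from 22.8 to 5.39 CPM along Fabp4.

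To see which genes accompany the transcript, each of the 267 positive cells was paired with the unused negative stromal cell nearest in total UMIs. The groups held 3165814 and 3164128 UMIs, with medians of 12249 and 12238 per cell, and the median pair differed by 0.0448% in depth. Among 2483 genes at 50 CPM or more in either group, 62 were more than 25% higher in the positive cells (2.5%) and 86 stood at under 0.8 times the negative cells (3.46%), and these are the sizes at which a gene is called higher or lower below. The median log2 ratio of all these genes was -0.02 with an interquartile range of -0.11 to 0.07, so most transcripts differed little between the groups. Cells and genes are no replicates, and the calls are by size alone. Against all negative cells, weighted to the depths of the positive ones, the calls were 36 higher and 52 lower of 2472 genes, and 29 and 31 of these were called with the pairs as well.

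Among the genes highest in Slc7a10-positive cells, Rorb, a nuclear receptor of the ROR family, led with 191 UMIs in 115 positive cells and 107 in 66 negative ones, 60.3 against 33.8 CPM, a ratio of 1.78 (1.40 to 2.28). Rorb met the minimum level for comparison in the positive cells only, as did Pcdh19, Arhgap10, Clec2d and Gm1673. Among the lowest genes, Mgp, Mmp3, Ccl6, C1qa, C1qb, C1qc, Pltp, Rrad, Adm and Sgk1 met it in the negative cells only. A minimum met in either group favours genes that are high in that group. The part of this rule in the order of the genes was not tested. Igf2, the imprinted fetal growth factor, had 601 and 379 UMIs, a ratio of 1.58 (1.39 to 1.81). Kcnj8, a subunit of ATP-sensitive potassium channels, had 333 and 200 UMIs, 1.66 times (1.39 to 1.99). Its partner subunit gene in mural cells, Abcc9, had 74 and 68 UMIs, and the mural cell genes Rgs5, Acta2 and Higd1b had no UMI in either group. All 9 mural markers together, Kcnj8 included, had 423 and 294 UMIs. The part of mural cells in the Kcnj8 value was not tested. Nrk, a kinase on the X chromosome, had 317 and 212 UMIs (1.49, 1.252 to 1.79), and Pcdh19, a protocadherin, 165 and 106 (1.56, 1.21 to 2.00).

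The other genes of the 15 highest included Fbn2 and Thbs1 of the matrix list. Fbn2, fetal fibrillin of elastic microfibrils, had 271 and 176 UMIs (1.54, 1.27 to 1.87). Thbs1, thrombospondin 1, had 239 and 168 (1.42, 1.16 to 1.74). Smpd3, a neutral sphingomyelinase and one of the interstitial progenitor genes, had 549 and 373 (1.47, 1.29 to 1.68), the largest ratio of its list. Arhgap10, Clec2d, Cgref1, Serpina3c, Gm1673 and Gm12840 stood at 1.41 to 1.70 times. Against all negative cells, Thbs1, Clec2d and Gm1673 were no longer past these sizes, with log2 ratios of 0.22, 0.27 and 0.29. Gm12840 was no stromal gene in particular, at 187 CPM in adolescent cells outside the stroma against 155 CPM within it. Rorb, by contrast, stood at 0.698 CPM outside the stroma and 37.7 CPM within.

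For 1 of the 15 highest, many of the UMIs in both groups came from doublets. Cma1, a mast cell protease, had 605 and 412 UMIs (1.47, 1.29 to 1.67), and 42.0% of the positive and 51.0% of the negative UMIs came from 1 cell each. Both cells were also rich in the mast cell genes Cpa3 and Tpsb2, and Scrublet had marked both as doublets. Mcpt4, another mast cell gene, had 103 of its 188 negative UMIs in the negative one of them, but only 3 of its 168 positive UMIs in the positive one. Without these cells the log2 ratio of Cma1 was 0.79 in place of 0.55. Without all predicted doublets it was 0.79 as well (346 and 199 UMIs). With a stromal minimum of 5%, at which the positive one of these cells falls out, it was -0.31.

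The genes lowest in the positive cells included 3 of the committed preadipocyte list, Fabp4, Dlk1 and Col4a1, and several macrophage genes. Fabp4 had 351 UMIs in 86 positive cells and 815 in 105 negative ones, 0.430 times (0.379 to 0.488). Against all negative cells, weighted to the same depths, its log2 ratio was -1.88 in place of -1.21. Dlk1, an imprinted preadipocyte gene that restrains adipocyte differentiation, had 827 and 1412 UMIs, 0.585 times (0.537 to 0.638), and Col4a1, a basement membrane collagen, 474 and 807, 0.587 times (0.523 to 0.658). Mgp, matrix Gla protein, had 99 and 291 UMIs, 0.340 times (0.268 to 0.429), in only 29 and 63 cells, and 38.4% of the positive UMIs lay in 1 cell. Mmp3, stromelysin 1, had 96 and 282 UMIs (0.340, 0.267 to 0.430). The vasodilator gene Adm, the kinase gene Sgk1, Rrad and the lipid transfer gene Pltp stood at 0.514 to 0.564 times. Each of these met the minimum level in the negative cells only. In all negative cells, weighted to the same depths, Pltp, Rrad and Sgk1 stood at 46.0, 49.8 and 49.9 CPM and were not compared. Adm had a log2 ratio of -0.80 there.

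Ccl6, Retnla, C1qa, C1qb and C1qc, genes of macrophages, were also among the lowest, at 0.368 to 0.457 times. A single negative cell of 20106 UMIs, which Scrublet had marked as a doublet, held 101 of the 239 negative Ccl6 UMIs and 40.0% to 42.0% of those of the 3 C1q genes. Another one held 35.7% of those of Retnla. Without the top cell of each group, the log2 ratios of these 5 genes moved from between -1.43 and -1.12 to between -0.73 and -0.44, beside changes for Rorb (0.83 to 0.85), Igf2 (0.66 to 0.69) and Mmp3 (-1.55 to -1.49). Without all predicted doublets these genes were level, with Ccl6 at 26.7 and 29.4 CPM (log2 ratio -0.13), Retnla at 101 and 102 CPM (-0.01) and C1qb at 27.4 CPM in both groups. The marked cell of 20106 UMIs held 178 of the 770 negative Retnla UMIs as well. Of 9 macrophage markers, 4 were compared and 3 of these were lower, the C1q genes, beside 3.46% of all 2483 genes. The C1q genes met the minimum level in the negative cells only, so their place among the lower genes is set by that rule. Against all negative cells, weighted to the same depths, 1 marker was compared, Apoe, and it was lower (0.77 times). The summed level of the 9 markers was 1536 CPM in the positive and 1675 CPM in the negative cells, most of it Apoe, which stromal cells express as well. Without predicted doublets the ratio of these sums was 1.01 (0.967 to 1.05). Markers of other cell types went both ways. The summed mast cell, mural and monocyte markers were higher with Slc7a10. They stood at 1.26 (1.16 to 1.37), 1.44 (1.24 to 1.67) and 1.12 times (1.09 to 1.15). Most of the mural UMIs came from Kcnj8 (333 and 200), a gene named for its high ratio in this same comparison. Of the other mural markers, Abcc9 had 74 and 68 UMIs. Cspg4 (3 and 6), Notch3 (6 and 11), Myh11 (1 and 2) and Tagln (6 and 7) had fewer UMIs in the positive cells. Rgs5, Acta2 and Higd1b had no UMI in either group. The mural markers other than Kcnj8 therefore showed no rise as a set. The monocyte list holds Fn1, which is in the matrix list too, so its sum is no measure of monocytes alone. Several other lists were lower. The 3 dendritic cell markers compared, of 9, were all lower, beside 3.46% of all 2483 genes, and the summed list stood at 0.702 times (0.648 to 0.760). For 6 general immune markers, 2 of the 3 compared were lower and the sum was 0.748 times (0.693 to 0.807). Against all negative cells, weighted to the same depths, none of the 3 dendritic and none of the 4 immune markers compared was lower. The median log2 ratios were then -0.12 and -0.22, in place of -0.47 and -0.44. The summed T cell and Schwann cell markers, none of them at 50 CPM, were at 0.785 (0.633 to 0.972) and 0.729 times (0.612 to 0.868). Without predicted doublets the dendritic, immune, T cell and Schwann cell sums were 0.886 (0.811 to 0.968), 0.878 (0.805 to 0.958), 0.702 (0.532 to 0.923) and 0.745 times (0.624 to 0.890). Without predicted doublets, 77 of 2472 genes were called higher and 82 lower, with 260 positive cells left. The log2 ratios of Rorb and Igf2 were then 0.81 and 0.63. Those of Fabp4 and Dlk1 were -1.19 and -1.01, in place of -1.21 and -0.77. The part of doublets in the mast cell, mural and monocyte sums was not tested.

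**Figure D3:**
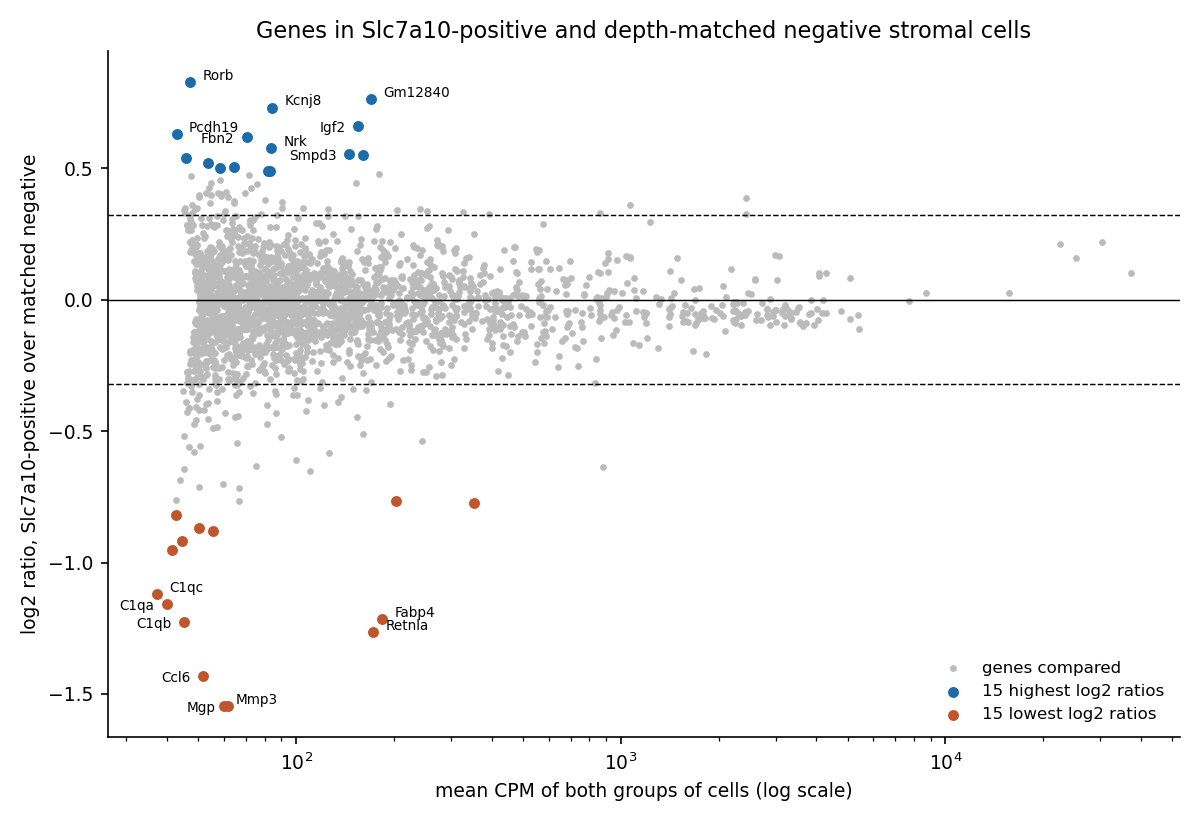
Each point is 1 of 2483 genes, with the mean CPM of both groups of cells on the x axis (log scale) and the log2 ratio of Slc7a10-positive over depth-matched negative adolescent stromal cells on the y axis; dashed lines mark the sizes at which genes were called, coloured points the 15 highest and 15 lowest ratios, and the 8 outermost on each side are labelled. Most genes lie between the dashed lines, with Rorb the highest at 0.83 and Mgp the lowest at -1.55.

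The named genes that were higher with Slc7a10 were mostly higher with Pi16 too, 14 of the 15 (93.3%) being higher in the cells with the most Pi16 than in those without it, beside 54.5% of all 2483 genes. By the gradient above, cells with Slc7a10 UMIs hold more Pi16, so this is no separate support. From cells without Pi16 to those with the most, Rorb went through 8.58, 10.3, 48.9 and 61.6 CPM, Smpd3 through 17.8, 46.7, 160 and 210 CPM and Kcnj8 through 13.9, 26.9, 105 and 125 CPM. Igf2 was more even, at 102, 128, 153 and 180 CPM. Fbn2, at 58.7, 61.5, 75.001 and 68.8 CPM, was more even still, and Arhgap10, at 48.2, 46.5, 46.7 and 39.0 CPM, was lowest in the cells with the most Pi16. In the highest Fabp4 group Rorb stood at 2.45 CPM, Smpd3 at 8.33 CPM and Igf2 at 66.6 CPM. Dlk1 ran the other way, from 1003 CPM without Pi16 to 69.2 CPM with the most. When the pairs were also matched on having or lacking a Pi16 UMI, 56 genes were called higher and 85 lower, and the log2 ratios of Rorb, Igf2 and Kcnj8 were 0.86, 0.60 and 0.76.

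Of the 15 highest genes, 12 were lower in the adult than in the adolescent stroma (80.0%), beside 47.6% of all 2483 genes. Igf2 had 1 UMI in all adult stromal cells, or 0.0863 CPM, against 149 CPM in the adolescent ones. Nrk stood at 0.604 against 76.3 CPM, Fbn2 at 3.37 against 67.6 CPM and Kcnj8 at 4.83 against 79.7 CPM. Smpd3, at 133 and 129 CPM, and Arhgap10, at 42.9 and 44.4 CPM, were at like levels at both ages, Arhgap10 being among the 12 by its sign. Pcdh19 and Clec2d were higher in the adult stroma, at 56.5 against 42.3 CPM and 66.8 against 58.6 CPM. Rorb lay between, at 20.9 and 37.7 CPM.

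Among the 20 interstitial progenitor genes, all compared, 5 were higher in Slc7a10-positive cells and none was lower, beside 2.5% and 3.46% of all 2483 genes. Their median log2 ratio was 0.17, beside -0.02 over all genes. The list holds Pi16, by which the cells were ranked above, and was chosen with earlier results of these data known. Its counts are therefore no separate support for the Pi16 gradient. The 5 were Smpd3, Akr1c18 (3789 and 2950 UMIs, 1.28 times), the growth factor gene Bmp7 (373 and 292, 1.28 times), the semaphorin gene Sema3c (1384 and 1102, 1.26 times) and Pi16 itself (8554 and 6822, 1.253 times). Dpp4, the surface peptidase used to sort these progenitors, had 775 and 670 UMIs (1.16, 1.04 to 1.28), and Wnt2 616 and 506 (1.22, 1.08 to 1.37). Cd55 at 0.99 times, Dact2 at 0.95 and the hyaluronan-binding gene Tnfaip6 at 0.92 lay at or below 1. Pi16 UMIs were present in 95.1% of the positive and 89.1% of the matched negative cells.

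Of the 20 committed preadipocyte genes, 11 were compared, with a median of -0.58. Of these, 7 were lower and none higher, beside 3.46% and 2.5% of all 2483 genes. Fabp4, by which the cells were ranked above, is 1 of the 7, and this list too was chosen with earlier results known. The counts are therefore no separate support for the Fabp4 gradient. Beside Fabp4, Dlk1 and Col4a1 the lower ones were Col4a2 (0.67 times), Col15a1 (0.64), Adamts12 (0.67) and the adhesion gene Icam1 (456 and 579 UMIs, 0.79, 0.69 to 0.89). The lipase gene Lpl (0.86), Plin2 (0.98), Apoe (0.98) and Igf1 (0.99) were not called. Among the 9 below 50 CPM, Car3, carbonic anhydrase 3, had 21 and 92 UMIs and Aoc3 51 and 95, while Agt, the angiotensinogen gene, had 33 and 12. Pparg, the master regulator of adipocyte differentiation, had 32 and 38 UMIs (0.84, 0.51 to 1.38), an interval that holds 1. Against all negative cells, weighted to the same depths, Pparg stood at 10.1 and 17.3 CPM, 0.585 times. Lpl and Apoe stood at 0.72 and 0.77 times in that comparison, where 10 of the 13 list genes compared were lower, beside 52 of all 2472 genes. Another stromal type, marked by F3 and Gdf10, had 10 genes, of which 4 were compared and 2 were lower, Mgp and Gdf10 (185 and 236 UMIs, 0.78), with none higher. F3 itself, at 95 and 122 UMIs, was under the minimum.

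The regulators of adipogenesis that were compared, by their median, and the summed genes of mature or beige adipocytes were near level between the groups. Of 20 regulators 9 were compared, and their median was 0.02. None was called, beside 2.5% of all 2483 genes called higher and 3.46% lower, shares at which 0 calls among 9 genes says little. Ebf2, a gene of beige and brown precursors, had 271 and 246 UMIs, Pdgfra 516 and 540, and Cebpa, the neighbour of Slc7a10, 61 and 76 (0.80, 0.56 to 1.14). None of the 15 mature adipocyte genes or the 14 thermogenic genes reached 50 CPM. The summed adipocyte genes stood at 108 CPM in the positive and 117 CPM in the negative cells (ratio 0.927, 0.798 to 1.08), with Adipoq at 3 and 9 UMIs, Plin1 at 1 and 0, and Lep at 0 in both. The summed thermogenic genes stood at 63.8 and 62.9 CPM (1.01, 0.830 to 1.24), with Ucp1 at 1 and 0 UMIs, Prdm16 at 6 and 7 and Tmem26 at 17 and 14. At such counts a difference in the single genes was not detectable.

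Genes of amino acid transport and of serine metabolism were level too. Slc3a2, the heavy chain partner of Asc-1, had 214 and 220 UMIs (0.97, 0.80 to 1.18), and it stood at 67.1 CPM in adolescent and 90.6 CPM in adult stroma, so the partner was counted at both ages. No other SLC7 gene reached 50 CPM; the family members Slc7a1, Slc7a6 and Slc7a7 had 56 and 47, 40 and 42, and 37 and 33 UMIs, and Slc7a5, the large neutral amino acid transporter LAT1, had 17 and 18. The small neutral amino acid transporters Slc1a5 and Slc38a2 had 611 and 546 UMIs (1.12, 0.99 to 1.26) and 553 and 539 (1.03, 0.91 to 1.16), and the other 13 of that list were under the minimum. Srr, serine racemase, which makes the Asc-1 substrate D-serine, had 33 and 42 UMIs (0.79, 0.48 to 1.27). Phgdh, Psat1 and Psph, the enzymes of serine synthesis, had 135 and 132, 30 and 16, and 48 and 57 UMIs. Summed over 17 serine and glycine enzymes the levels were 220 and 206 CPM (1.07, 0.959 to 1.19). Of 7 NMDA receptor subunits, Grin2d alone was detected in either group, with 11 and 18 UMIs.

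Imprinted and matrix genes had few calls in each direction, beside 2.5% of all 2483 genes called higher and 3.46% lower. Against all negative cells, weighted to the same depths, each of these 2 lists had 1 gene higher and 2 lower, beside 36 and 52 of all 2472 genes. Of 15 imprinted growth genes, 13 were compared, 2 were higher and 2 lower, with a median of 0.10. The higher pair was Igf2 and H19, which share one imprinted domain (H19 at 8694 and 6646 UMIs, 1.31, 1.27 to 1.35), and the lower pair was Dlk1 and Mest (160 and 263 UMIs, 0.61, 0.50 to 0.74). Meg3, which shares the Dlk1 domain, was at 1.07 times. Of 28 matrix genes, 27 were compared, 2 were higher (Fbn2 and Thbs1) and 2 lower (Mfap4 at 0.76 and Fbln1 at 0.77 times), with a median of 0.04; elastin (Eln) was at 0.80. Among 17 genes of the response to tissue dissociation, 16 were compared and 1, the heat shock gene Hspa1a, was lower (0.70 times), with a median of -0.08. None of 20 cell cycle genes reached 50 CPM, and their summed levels were 218 and 215 CPM (1.01, 0.910 to 1.13).

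**Figure D4:**
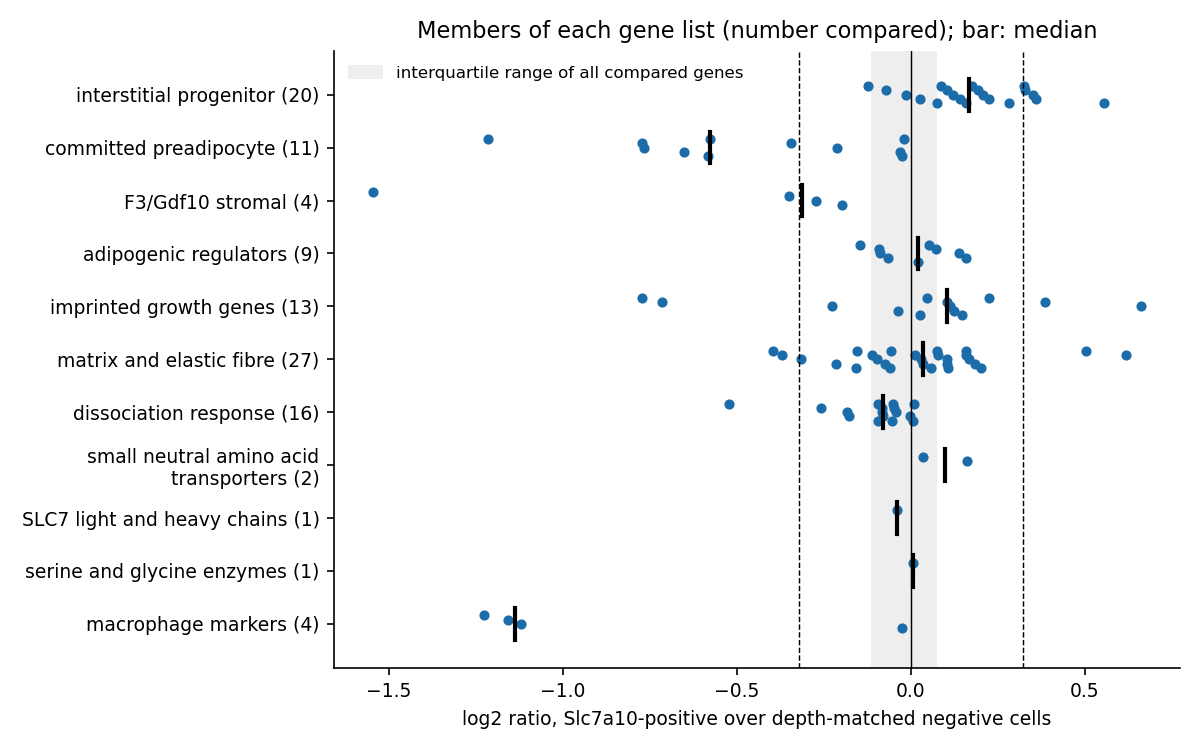
Each point is a gene at 50 CPM or more, with its log2 ratio (Slc7a10-positive over depth-matched negative cells) on the x axis and its list on the y axis, the number compared in brackets and a bar at the median; grey marks the interquartile range of all 2483 genes and dashed lines the sizes at which genes were called. The interstitial progenitor genes have a median of 0.17 and the committed preadipocyte genes one of -0.58.

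Around the locus, Lrp3, whose 3′ end overlaps that of Slc7a10 on the other strand, had 74 and 63 UMIs in positive and matched negative cells (1.17, 0.828 to 1.67), and in the stroma 23.3 CPM in the adolescent and 17.9 CPM in the adult library. Cebpa stood at 26.2 and 45.6 CPM in the adolescent and adult stroma. Neither neighbour showed the gap between the ages that Slc7a10 did. The annotated noncoding genes Gm35611, Gm45091 and Gm35665 had no UMI in stromal cells of either age, and Gm22535, Gm24505 and Gm44636 were not among the genes of the files analysed here.

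Ratios were larger for several genes in the 53 cells with at least 2 Slc7a10 UMIs. Against as many depth-matched negative cells, the log2 ratio of Rorb was 1.62, of Pcdh19 1.43, of Gm12840 1.29, of Gm1673 1.21 and of Igf2 1.00. Fabp4 stood at -3.07 and Mmp3 at -2.19. The largest of the named genes was Cma1 at 2.50, the mast cell gene with many of its UMIs in doublets. Here 420 of 2651 genes were called higher and 389 lower, so the ratios were spread far more widely than with all 267 positive cells.

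**Figure D5:**
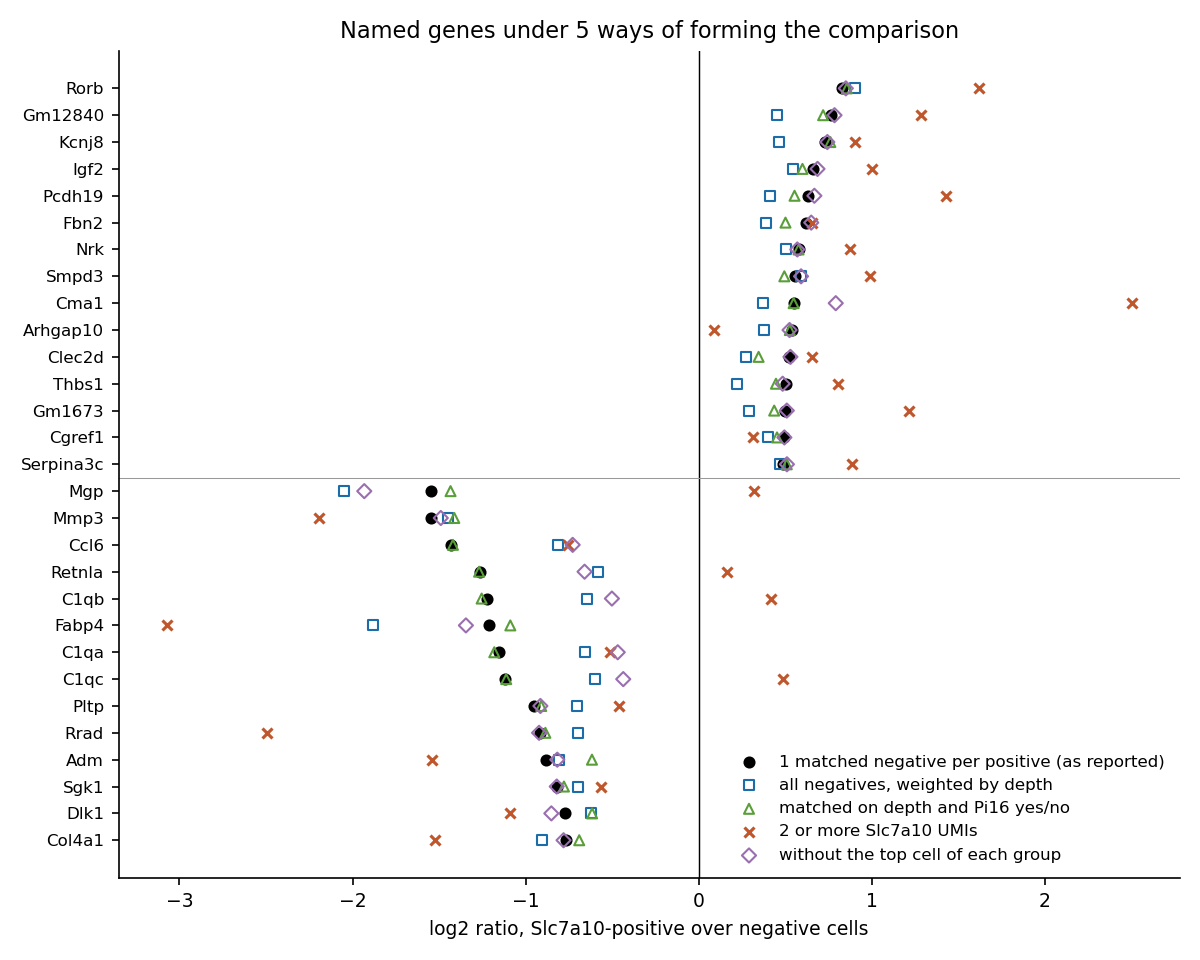
Log2 ratios (x axis) of genes among the 15 highest and the 15 lowest (y axis) under 5 ways of comparing Slc7a10-positive with negative adolescent stromal cells, each with its own symbol. Rorb lies at 0.83 to 1.62 in all 5, whereas Mgp, Retnla, C1qb and C1qc cross 0 with 2 or more Slc7a10 UMIs, where only 53 positive cells remain.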

How the data were processed

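The authors processed the reads in Cell Ranger, on the mouse build GRCm38 with Ensembl release 94 gene models, collapsing them to unique molecular identifiers (UMIs) and calling cells. The deposited values are raw UMI counts per gene and cell, without normalization or stated doublet removal. The adolescent library held 28010800 UMIs in 3915 cells (median 5676) and the adult library 29517430 in 5429 (median 4147), which sets the precision.

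Both libraries were clustered together (counts scaled to the median depth, 50 principal components, 100 neighbours, Louvain at resolution 1), and clusters were named from marker lists. Doublets were predicted with Scrublet and kept. UMIs were summed over cells and scaled to CPM, with exact Poisson, conditional binomial (ratios) and exact binomial (shares) 95% intervals. For a count of 0 the limit given is 3 UMIs, which is below the upper end of the 95% interval. For adolescent T-cell-like cells this limit is 1.93 CPM, where the interval reaches 2.37 CPM. For genes, positive and depth-matched negative cells were compared at 50 CPM or more in either group, with 1 UMI added to each sum for log2 ratios, and called by size alone (more than 25% higher, or under 0.8 times). Named genes were the 15 highest and 15 lowest log2 ratios, members of 14 lists and genes overlapping Slc7a10 or starting within 100 kb of it; others are named as chosen after their values were seen. Some genes and 1 stromal cluster are not reported here. Members and lists were chosen with earlier results of these data known. The comparison was run on simulated Poisson counts at the real depths and mean levels, with set genes changed in the positive cells. The simulated cells held no doublets and no other differences, so they do not show how far the calls hold in the real cells. Alternatives concerned the stromal minimum, doublets, matching, weighting, gene minimum and thinning depth. The tools were Python 3.11.15, scanpy 1.11.5, igraph 0.11.9, numpy 2.4.6, scipy 1.17.1 and pandas 2.3.3.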

Additional observations from a re-analysis of the deposited data

How the results depend on the processing

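The ratio between the ages lay between 45.7 and 48.2 with stromal minimums of 2% and 5% or without predicted doublets, and the Pi16 ratio between 2.69 and 3.91 over its 6 alternatives. The Fabp4 ratio was 0.242 to 0.273 in 4 of its 6 alternatives and 0.569 when cells were ranked by the committed preadipocyte list. The adolescent share was 1.85% at 1000 and 8.996% at 5000 UMIs, as fewer or more UMIs per cell were kept.

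Leaving out stromal cells with UMIs of 2 or more endothelial, mural, Schwann or immune genes kept 180 adolescent cells, 16 of them with Slc7a10, and 87 adult cells with none, so no ratio between the ages was made. The Fabp4 ratio was then 0 (0 to 1.28), 943 genes were called higher and 1017 lower, and the medians were 0.57 for interstitial progenitor and 0.38 for matrix genes. Arhgap10 (-0.53), Cma1 (-0.27) and Ccl6 (1.86) changed sign in these 16 cells, whereas Clec2d, Gm1673 and Serpina3c were level (-0.0107 each). Cma1 changed sign too at a stromal minimum of 5% (-0.31). With 2 or more Slc7a10 UMIs, 420 genes were higher and 389 lower, Retnla changed sign (0.17), and the medians were 0.31 for interstitial progenitor and -0.23 for dissociation genes. With 3 negative cells per positive one 41 genes were higher, with all negatives weighted 36 were higher and 52 lower, with a minimum of 20 CPM 286 and 401, and with 100 CPM 21 and 24, where more or fewer genes were compared. Leaving out the top cell of each group was chosen after seeing the data. The cause of the other shifts was not tested. Rorb stayed between 0.79 and 2.45 over its 12 alternatives. No paired analysis was possible because each age had 1 library.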

Other observations

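Some genes under the 50 CPM minimum differed in the Slc7a10-positive cells, and their small sums are given as values. Gata2, a transcription factor of preadipocytes and of mast cells, had 17 UMIs in positive and 1 in matched negative cells, with 7 of the 17 in 1 of only 7 positive cells, and the mast cell genes Kit and Hdc had 17 and 5 and 50 and 25 UMIs. Thbs4, thrombospondin 4 of tendon and muscle matrix, had 0 UMIs in the positive and 16 in the negative cells, and the summed tendon markers stood at 4.42 and 17.1 CPM. Fmo2 and Meox2, of the F3 and Gdf10 stromal list, had 37 and 90 and 19 and 38 UMIs. The serine synthesis gene Psat1 had a ratio of 1.87 (0.990 to 3.68), which reaches just below 1.

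Positive and matched negative cells had like quality values. The mitochondrial share of UMIs was 1.66% and 1.71%, and the median number of detected genes was 3067 and 3107. Scrublet marked 7 of the 267 positive and 10 of the 267 negative cells as doublets. The stromal rule genes took a median 10.6% of the UMIs of the positive and 9.12% of those of the negative cells. Over the 8 stromal markers, 7 had a log2 ratio above 0, with a median of 0.13, and none was called higher or lower, beside 2.5% and 3.46% of all 2483 genes.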
